A study of Mus musculus with 10 samples.

Results

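The 7 genes described here, *Pdgfra*, *Cspg4*, *Gpr17*, *Ptprz1*, *Vcan*, *Lhfpl3* and *Neu4*, are markers of oligodendrocyte precursor cells (OPCs), and they were taken by name from the deposited count table of 22000 genes. All 7 had a row in the table and passed the filter on low counts, as did 14344 genes in all. The counts come from RNA-seq of the prefrontal cortex (PFC) of 5 wild-type (WT) and 5 *Zbtb16* knockout (KO) mice, each 7 weeks old, labelled male and sequenced as 1 library. KO mice carry the *lu* allele on both chromosomes in the B6.C3-*Zbtb16* lu/J strain, a nonsense point mutation present in every cell of the body, and not a deletion restricted to the oligodendrocyte lineage. WT mice lack the allele. Whether the sequenced mice were littermates is not given in the sources used here, although this is stated for the mice used in behavioral tests. The study also stained the PFC for PDGFRα+ cells and reported fewer of them in KO mice. The comparison here asks whether the transcripts of OPC genes differed between KO and WT mice in the same region. Counts of stained cells and RNA levels of whole tissue are unlike measures.

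OPCs are glial cells that persist in the adult cortex, divide, and give rise to myelinating oligodendrocytes. They are recognized by the receptor for platelet-derived growth factor (PDGF) and by a coat of chondroitin sulfate proteoglycans, much of which is lost as the cells differentiate. *Gpr17* and *Neu4* mark cells that have started on this path, before myelin genes come up. Some of these genes are not restricted to OPCs. *Ptprz1* is also made by astrocytes, *Pdgfra* and *Vcan* by fibroblasts of the meninges and vessels, and *Cspg4* by pericytes. In bulk tissue, fewer cells of a type and less RNA per cell cannot be told apart.

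Total counts were between 30220122 and 51231439 per mouse, so that 3 counts corresponded to 0.0586 to 0.0993 CPM of these totals. CPM below give the count of a gene relative to the total of its library after TMM scaling, which adjusts for differences in composition. The RNA integrity number (RIN) lay between 8.1 and 9.8, with 3 mice of each genotype at 9.5 or above. *Zbtb16*, which encodes a zinc finger transcription factor and carries the mutation, had 47.4 ± 4.96 CPM in KO mice and 79.0 ± 7.23 CPM in WT mice (SD, n = 5 each), and each KO mouse was below each WT mouse. Summed over *Uty*, *Kdm5d*, *Ddx3y* and *Eif2s3y*, Y-linked genes came to 0.0308 CPM in KO mouse 3 and to between 145.4 and 171.4 CPM in the other mice. The library labelled KO mouse 3 thus went against its label of male and was kept, and the counts of OPC genes were also taken without it. Genes known for striatal neurons summed to 593.8 CPM in WT mouse 5 and to between 298.3 and 328.2 CPM in the other WT mice.

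None of the 7 OPC genes was called between KO and WT mice. KO and WT mice were compared in edgeR by its quasi-likelihood (QL) test, in a model of genotype plus 3 surrogate variables. These are weights per mouse that stand for unrecorded differences between mice or libraries. The largest weight was that of KO mouse 5 (0.874) in variable 1 and that of KO mouse 2 (0.726) in variable 2. The p-values were adjusted by the Benjamini-Hochberg method over all 14344 genes. At an adjusted threshold of 0.05, 0 of the 7 were called, against 0.844% of all genes tested. At an unadjusted p under 0.05, *Pdgfra* and *Ptprz1* passed, both in the direction of higher levels in KO mice, where 5.51% of all genes tested did. This count of 2 was 1 without KO mouse 2, WT mouse 3 or WT mouse 4, 3 without KO mouse 1, WT mouse 2 or WT mouse 5, and 4 with genotype as the sole term. DESeq2 and limma, fitted with the same terms, also called 0 of the 7. The fitted log2 fold change, KO minus WT, was above 0 for 6 of the 7 genes, compared with 48.1% of all genes tested, and its median was 0.12 over the 7 and -0.0044 over all genes. *Lhfpl3* was the exception. Every one of the 7 genes overlapped between the genotypes, while 1.58% of all genes tested had groups that did not overlap in CPM. Without KO mouse 3, the calls were again 0 of 7 and the fold change was above 0 for 6, with a median of 0.08. Without KO mouse 5, 1 of the 7 was called, *Ptprz1*.

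**Figure D1:**
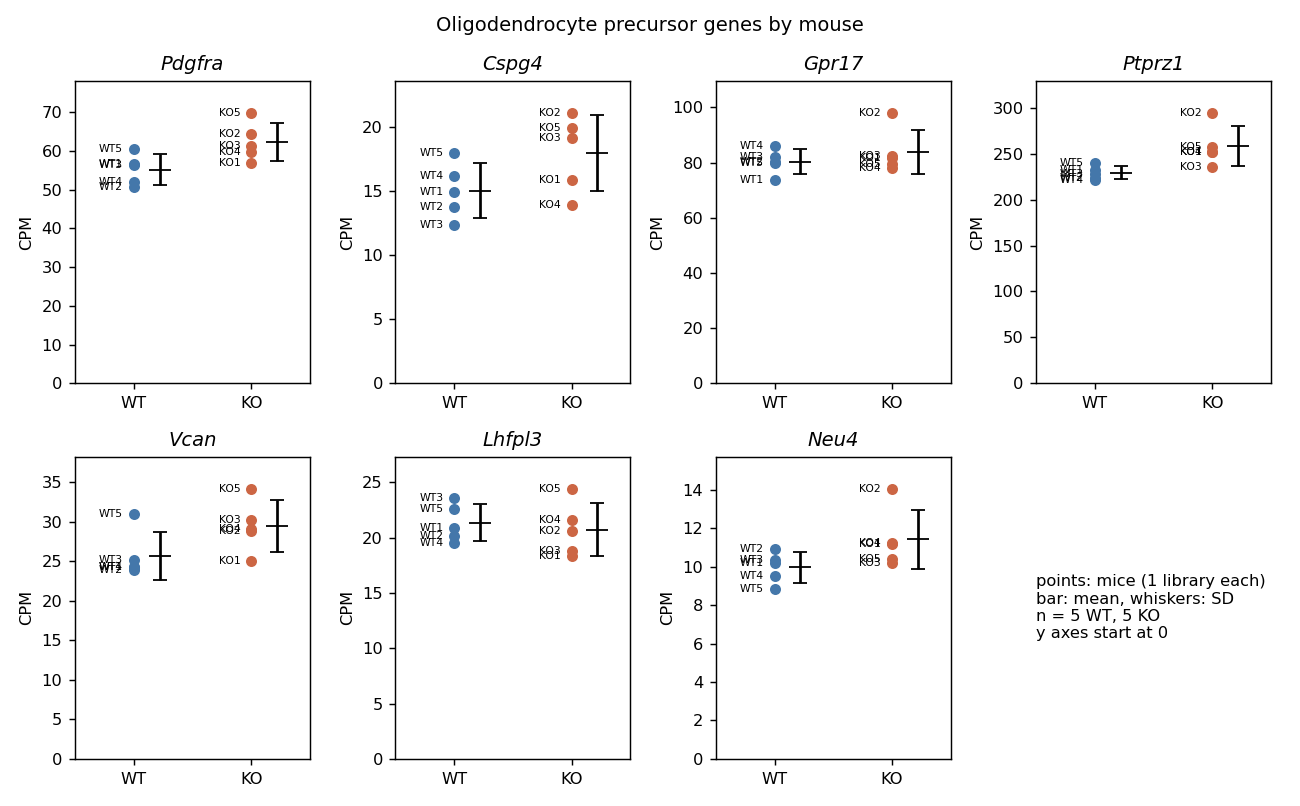
Expression of the 7 OPC genes in CPM (y axis, from 0) in each mouse, by genotype (x axis), with 1 point per mouse and the mean and SD beside the points. In each panel the KO and WT mice overlap, KO mouse 2 stands above the other KO mice for *Gpr17* and *Neu4*, and WT mouse 5 stands above the other WT mice for *Vcan*.

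*Pdgfra* encodes the α receptor for PDGF, through which the ligand PDGF-A keeps OPCs dividing. It spans chr5:75152292-75198215 on the plus strand (GRCm38, Gencode M21). Its level was 56.9, 64.5, 61.3, 59.7 and 69.7 CPM in KO mice 1 to 5. In WT mice 1 to 5 it was 56.6, 50.6, 56.4, 51.9 and 60.5 CPM. Each KO mouse was above the WT mean, and 3 of the 5 were above the highest WT mouse, WT mouse 5, while KO mice 1 and 4 lay within the WT range. The log2 fold change was 0.11 (SE 0.05, 95% confidence interval 0.01 to 0.22), with an edgeR QL adjusted p = 0.443 and an unadjusted p of 0.0397 in an exact two-sided permutation test of log2 CPM. With genotype as the sole term, the log2 fold change was 0.18 (interval 0.04 to 0.31). In mice with a RIN of 9.5 or above, 3 of each genotype, the mean log2 CPM of KO mice exceeded that of WT mice by 0.11. In mice with a lower RIN, KO mice 3 and 5 and WT mice 3 and 4, it did so by 0.27. These same groups, 3 and 2 mice per genotype, are used for RIN below, and the difference between them was not tested. The exons of *Pdgfra* overlap an antisense transcript, Gm42802, over 4.55% of their bases, and whether reads were counted by strand is not given in the sources used here.

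*Vcan* encodes versican, a large chondroitin sulfate proteoglycan of the lectican family that binds hyaluronan in the matrix around OPCs. It lies at chr13:89655312-89742509 on the minus strand. KO mice 1 to 5 had 25.0, 28.8, 30.2, 29.1 and 34.1 CPM. WT mice 1 to 5 had 24.3, 23.8, 25.1, 24.2 and 31.0 CPM. The first 4 WT mice were close together and below 4 of the 5 KO mice, but WT mouse 5 was higher than each KO mouse except KO mouse 5. The log2 fold change was 0.12 (SE 0.07, interval -0.02 to 0.26), with an edgeR QL adjusted p = 0.551 and a p of 0.119 in the exact permutation test. With genotype alone it was 0.20 (interval 0.01 to 0.39). It was 0.06 without KO mouse 3 and 0.18 without KO mouse 1. The difference in mean log2 CPM was 0.08 in the mice of higher RIN and 0.38 in those of lower RIN.

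*Ptprz1* encodes a receptor-type tyrosine phosphatase that carries chondroitin sulfate and serves as the receptor of pleiotrophin. It lies at chr6:22875502-23052916 on the plus strand. Its level was 252.3, 294.1, 236.0, 251.6 and 257.3 CPM in KO mice 1 to 5. WT mice 1 to 5 had 232.6, 224.1, 228.6, 221.5 and 239.6 CPM. KO mice 1, 2, 4 and 5 were above the highest WT mouse, and KO mouse 3 was above 4 of the 5 WT mice. Of the 7 genes it had the smallest p, with a log2 fold change of 0.14 (SE 0.04, interval 0.05 to 0.23) and an edgeR QL adjusted p = 0.159, and a p of 0.0159 in the exact permutation test. KO levels were thus 1.10-fold those of WT mice in the fit, with an interval of 1.04 to 1.17. Without KO mouse 5 the log2 fold change was 0.18 and the adjusted p 0.0111 in edgeR's test, whereas without each of the other mice in turn the adjusted p stayed between 0.0549 and 0.398. With genotype alone the log2 fold change was 0.17 (interval 0.06 to 0.28). The difference in mean log2 CPM was 0.19 in the mice of higher RIN and 0.13 in those of lower RIN. Markers of astrocytes, which also make *Ptprz1*, had a fold change above 0 for 6 of 8 genes, a median log2 fold change of 0.07 and 0 calls. At an unadjusted p under 0.05 in edgeR's test, 2 were higher in KO mice, *Slc1a3* and *Gfap*, and 1 was lower, *Aldoc*. *Slc1a3* had a log2 fold change of 0.14 (interval 0.05 to 0.23), with an edgeR QL adjusted p = 0.167. The summed level of these markers was 4982 to 5834 CPM in KO mice and 5220 to 5816 CPM in WT mice. Most of it was *Slc1a2*, with means of 3435 CPM in KO mice and 3549 CPM in WT mice. The part of astrocytes in the *Ptprz1* difference was not tested.

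The sequence before the start site is shown for the 3 genes that the results turn on, *Pdgfra* and *Vcan*, whose levels moved together over the mice, and *Ptprz1*, with the smallest p. Each run is the 250 bases before the RefSeq start of the gene, read 5′ to 3′ on the strand of the gene, from RefSeq promoter windows on GRCm38.p6. Capitals mark matches to the E-box, CANNTG, the core bound by basic helix-loop-helix factors such as OLIG2, and to the GC box, GGGCGG, on either strand. The windows are chr5:75152001-75152250, chr13:89742513-89742762 and chr6:22875252-22875501, in this order.
Pdgfra: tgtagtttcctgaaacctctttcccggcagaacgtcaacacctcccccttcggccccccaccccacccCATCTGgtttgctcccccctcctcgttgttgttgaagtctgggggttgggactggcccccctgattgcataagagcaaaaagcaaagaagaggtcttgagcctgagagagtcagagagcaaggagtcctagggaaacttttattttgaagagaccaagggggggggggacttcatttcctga
Vcan: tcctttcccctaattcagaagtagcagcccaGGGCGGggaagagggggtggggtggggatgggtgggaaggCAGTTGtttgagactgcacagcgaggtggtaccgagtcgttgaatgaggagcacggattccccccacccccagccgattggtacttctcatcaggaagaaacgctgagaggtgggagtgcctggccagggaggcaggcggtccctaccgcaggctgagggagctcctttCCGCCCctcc
Ptprz1: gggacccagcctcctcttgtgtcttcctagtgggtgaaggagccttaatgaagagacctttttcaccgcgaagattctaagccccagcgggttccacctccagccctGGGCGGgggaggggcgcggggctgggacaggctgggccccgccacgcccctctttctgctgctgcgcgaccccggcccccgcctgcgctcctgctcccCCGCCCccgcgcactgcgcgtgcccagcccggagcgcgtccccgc
*Pdgfra* held 1 E-box and 0 GC boxes, *Vcan* 1 E-box and 2 GC boxes, and *Ptprz1* 0 E-boxes and 2 GC boxes. Windows of 6 of the 7 genes were examined, with 1 window per gene, and the remaining gene was left out of this search. Of these 6, 4 held an E-box, against 66.2% of 32851 windows of the same length. The 32851 windows were not chosen in the same way as the 6. A GC box was in 4 of the 6, against 32.7% of all windows. The letters ACAAAG and AACAAT, cores of SOX factor motifs, were in 0 of the 6 windows, against 16.5% and 9.42% of all windows. These matches are a description of the letters only.

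*Cspg4* encodes NG2, the transmembrane chondroitin sulfate proteoglycan after which OPCs are also called NG2 cells. The gene lies at chr9:56865033-56899870, on the chromosome of the mutated gene and 8.029 Mb from *Zbtb16*. Whether sequence of the strain in which the *lu* allele arose extends to it was not tested. KO mice 1 to 5 had 15.8, 21.04, 19.1, 13.9 and 19.9 CPM. WT mice 1 to 5 had 14.9, 13.8, 12.3, 16.2 and 17.9 CPM. KO mice 2, 3 and 5 were above the highest WT mouse, while KO mouse 4 lay below 3 of the WT mice. It was the most variable of the 7 genes, with a coefficient of variation (SD as a percent of the mean) of 16.6% in KO mice and 14.3% in WT mice, against 4.05% from counting alone. The log2 fold change was 0.14 (SE 0.11, interval -0.08 to 0.37), with an edgeR QL adjusted p = 0.703 and a p of 0.127 in the exact permutation test. It was 0.26 (interval 0.01 to 0.51) with genotype alone, -0.01 without WT mouse 3, 0.08 without KO mouse 3 and 0.27 without KO mouse 4. The difference in mean log2 CPM was 0.11 in the mice of higher RIN and 0.46 in those of lower RIN.

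*Gpr17* encodes a G protein-coupled receptor that is switched on in committed precursors and switched off again before they myelinate. It lies at chr18:31942997-31949636 on the minus strand. Levels in KO mice 1 to 5 were 81.6, 97.8, 82.5, 78.1 and 79.3 CPM. In WT mice 1 to 5 they were 73.8, 80.2, 82.2, 86.0 and 79.8 CPM. The genotypes were mixed except for KO mouse 2, which stood above all other mice. Its log2 fold change was the closest to 0 among the 7, at 0.02 (SE 0.04, interval -0.07 to 0.11), with an edgeR QL adjusted p = 0.931 and a p of 0.5 in the exact permutation test. The interval corresponds to KO levels between 0.953 and 1.08 times those of WT mice. Without KO mouse 2 the log2 fold change was -0.03, and with genotype alone it was 0.06 (interval -0.07 to 0.19). The difference in mean log2 CPM was 0.13 in the mice of higher RIN and -0.05 in those of lower RIN. Its exons overlap those of *Lims2*, on the opposite strand, over 3.62% of their bases.

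*Neu4* encodes a sialidase, an enzyme that removes sialic acid from glycoproteins and glycolipids. It lies at chr1:94020451-94028334 on the plus strand and had the lowest CPM of the 7 genes. KO mice 1 to 5 had 11.2, 14.03, 10.2, 11.2 and 10.4 CPM. WT mice 1 to 5 had 10.2, 10.9, 10.3, 9.54 and 8.82 CPM. Again KO mouse 2 stood apart on the high side, and the lowest KO mouse, KO mouse 3, was above 3 of the 5 WT mice. The log2 fold change of 0.19 was the largest of the 7 and had a wide interval (SE 0.10, interval -0.02 to 0.40), with an edgeR QL adjusted p = 0.538 and a p of 0.0476 in the exact permutation test. The difference in mean log2 CPM was 0.28 in the mice of higher RIN and 0.05 in those of lower RIN. Between 307 and 537 reads per mouse were counted, so that counting alone gave a coefficient of variation of 5.04%, compared with 13.5% in KO mice and 8.16% in WT mice.

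*Lhfpl3* encodes a membrane protein with 4 passes through the membrane. It spans chr5:22746059-23275597 on the plus strand. KO mice 1 to 5 had 18.3, 20.6, 18.8, 21.6 and 24.4 CPM. WT mice 1 to 5 had 20.8, 20.2, 23.6, 19.5 and 22.6 CPM. KO mouse 5 was the highest of all mice and KO mice 1 and 3 the lowest, so the KO group enclosed the WT group. This was the one gene of the 7 with a fold change below 0, a log2 value of -0.12 (SE 0.07, interval -0.27 to 0.03), with an edgeR QL adjusted p = 0.602 and a p of 0.619 in the exact permutation test. With genotype alone the value was -0.04 (interval -0.22 to 0.14), and without WT mouse 3 it was also -0.04. A noncoding transcript on the opposite strand, A930003O13Rik, overlaps 17.6% of its exon bases, the largest share among the 7 genes.

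**Figure D2:**
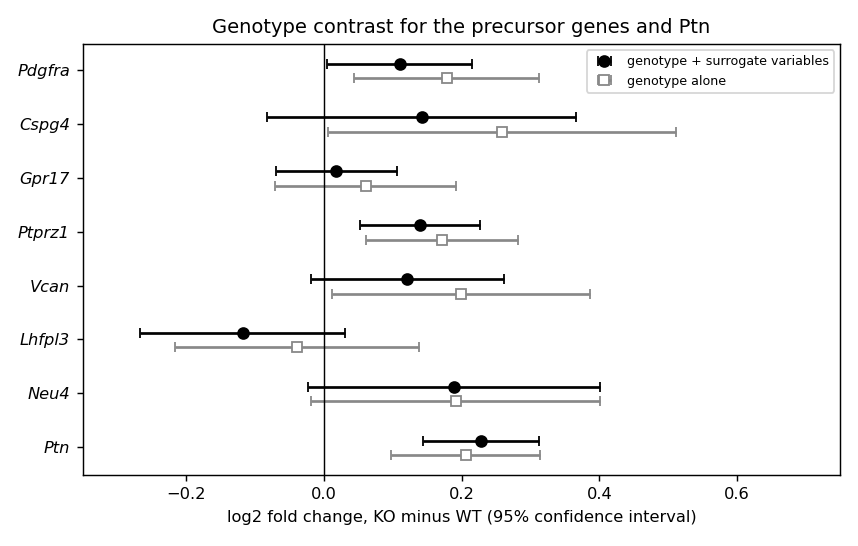
Log2 fold change, KO minus WT (x axis), with its 95% confidence interval for the 7 OPC genes and *Ptn* (y axis), from the model of genotype and surrogate variables (filled circles) and from genotype alone (open squares). With surrogate variables, the intervals of *Pdgfra*, *Ptprz1* and *Ptn* lie above 0, and those of the other genes include 0.

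Levels of different genes were compared per kb of union exon length. In WT mice, *Ptprz1* had 16.1 ± 0.50 CPM per kb (SD, n = 5) and *Gpr17* 15.5 ± 0.85, followed by *Lhfpl3* with 6.64 ± 0.53, *Pdgfra* with 5.51 ± 0.40, *Neu4* with 2.15 ± 0.18, *Vcan* with 1.78 ± 0.21 and *Cspg4* with 1.26 ± 0.18. *Ptprz1* and *Gpr17* overlapped, as *Ptprz1* was above *Gpr17* in 4 of the 5 WT mice and in 5 of the 5 KO mice. *Neu4* and *Vcan* overlapped too, with *Neu4* above *Vcan* in 4 of 5 mice of each genotype. *Lhfpl3* exceeded *Pdgfra* in 5 of 5 WT mice and in 3 of 5 KO mice. The gaps from *Gpr17* to *Lhfpl3* and from *Pdgfra* to *Neu4* held in each of the 10 mice, and *Vcan* was above *Cspg4* in each.

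The 7 genes did not follow 1 common pattern over the mice. KO mouse 5 had the highest level of *Pdgfra*, *Vcan* and *Lhfpl3*, whereas KO mouse 2 had the highest level of *Ptprz1*, *Cspg4*, *Gpr17* and *Neu4*. Among the 21 pairs of the 7 genes, 17 had a Pearson correlation of log2 CPM above 0 over the 10 mice, and 1 passed after adjustment over the pairs, *Pdgfra* with *Vcan*. For this pair r was 0.90 (permutation test, p = 0.00029, adjusted p = 0.00609) and Spearman's rho was 0.88 (permutation test, p = 0.00191, adjusted p = 0.0322). Without KO mouse 5 and WT mouse 2, the mice farthest from the median of *Pdgfra*, r was 0.81, and after subtracting each genotype's mean it was 0.85. *Pdgfra* with *Ptprz1* had a rho of 0.85 (permutation test, p = 0.00307, adjusted p = 0.0322) and an r of 0.73 (permutation test, p = 0.0172, adjusted p = 0.126), which became 0.76 without KO mouse 5 and WT mouse 2 and 0.47 within genotypes.

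Some other pairs depended on 1 or 2 mice. *Gpr17* and *Neu4*, the genes of committed precursors, had an r of 0.61 (permutation test, p = 0.0847, adjusted p = 0.254) and a rho of 0.10 (permutation test, p = 0.784, adjusted p = 1), and without KO mouse 2 and WT mouse 1 r was -0.33. *Ptprz1* and *Neu4* had an r of 0.76 (permutation test, p = 0.0201, adjusted p = 0.126) and a rho of 0.58 (permutation test, p = 0.0878, adjusted p = 0.289), and r was 0.37 without KO mice 2 and 5. *Pdgfra* and *Gpr17*, which mark the early and the committed stage, had an r of 0.17 (permutation test, p = 0.640, adjusted p = 0.790) and a rho of -0.01 (permutation test, p = 1, adjusted p = 1). The difference in r between pairs was not tested.

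**Figure D3:**
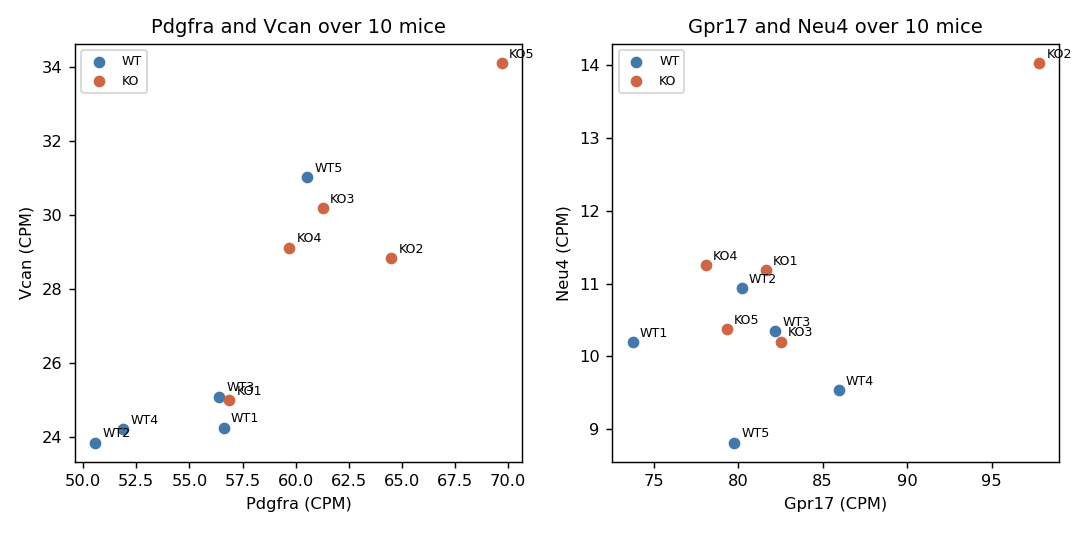
CPM of *Vcan* against *Pdgfra* (left) and of *Neu4* against *Gpr17* (right), with 1 labelled point per mouse, WT in blue and KO in orange. Mice with more *Pdgfra* had more *Vcan* (r of log2 CPM 0.90), while KO mouse 2 stands alone at the upper right for *Gpr17* and *Neu4* (r 0.61, and -0.33 without this mouse and WT mouse 1).

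To describe the genes most like the 7, the log2 CPM of each of the 7 was standardized over the mice and averaged. The average was 1.37 in KO mouse 2 and 0.91 in KO mouse 5, and the other KO mice lay between -0.25 and 0.07. WT mice lay between -0.71 and 0.09, with WT mouse 5 the highest. KO mouse 2 also had the highest summed level of all mice for markers of fibroblasts (86.5 CPM, next 63.0), astrocytes (5834 CPM, next 5816) and microglia (294.9 CPM, next 285.5), and the lowest for neuron markers (8159 CPM, next 8808). Within the fibroblast sum, *Dcn* alone was at 28.4 CPM in KO mouse 2 and at 6.89 to 11.2 CPM in the other mice. The part of these markers in the values of KO mouse 2 was not tested. Of all other genes, *Kcnn3*, a calcium-activated potassium channel, had the highest Pearson correlation with this average, at 0.96 over the 10 mice, followed by *Tbc1d16* with 0.95, *Mapk3*, the kinase ERK1, with 0.94, *Itpr2*, the type 2 inositol trisphosphate receptor of the endoplasmic reticulum, with 0.94, and *Sema6a*, a membrane semaphorin, with 0.93. They were picked as the highest among all genes tested, over 10 mice, and so carry no p-value. *Kcnn3* had 24.3 CPM in KO mice and 19.0 CPM in WT mice, a log2 difference of 0.22 in the fit, with an edgeR QL adjusted p = 0.313.

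Other markers of OPCs, 16 genes in all, were examined next. By edgeR's test 0 of the 16 were called, 14 had a fold change above 0, and the median log2 fold change was 0.05. At an unadjusted p under 0.05, 3 were higher in KO mice, *Megf11*, *Rlbp1* and *Ncan*, and 1 was lower, *Pcdh15*. The largest fold change was that of *Megf11*, a membrane protein with EGF-like repeats, which had 22.5 ± 1.35 CPM in KO mice and 17.7 ± 3.45 CPM in WT mice (SD, n = 5 each). Its log2 fold change was 0.27, with an edgeR QL adjusted p = 0.276. *Rlbp1*, a retinaldehyde binding protein, was between 15.4 and 17.6 CPM in KO mice and between 12.5 and 14.5 CPM in WT mice, so its groups did not overlap, and its edgeR QL adjusted p was 0.159. *Pcdh15*, a protocadherin, had 24.2 ± 1.72 CPM in KO mice and 26.2 ± 2.52 CPM in WT mice (SD, n = 5 each), a log2 difference of -0.15 in the fit. *Olig1*, a basic helix-loop-helix factor of the whole lineage, had 106.1 ± 14.8 CPM in KO mice and 100.5 ± 7.74 CPM in WT mice (SD, n = 5 each).

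Of the transcription factors that specify or hold the lineage, 0 of 21 were called, 12 had a fold change above 0 and the median was 0.03. *Nkx2-2*, a homeodomain factor that comes up as precursors commit, had the largest value, a log2 fold change of -0.52 (SE 0.20) with an edgeR QL adjusted p = 0.323, and its levels were 2.07 to 3.63 CPM in KO mice and 2.26 to 4.89 CPM in WT mice. Related SOX factors of the same subgroup had values of both signs. *Sox8* was at 0.28 on the log2 scale, with an edgeR QL adjusted p = 0.139, and *Sox10* at -0.15, with an edgeR QL adjusted p = 0.388. *Olig2* had 28.1 ± 7.96 CPM in KO mice (SD, n = 5), from 18.3 in KO mouse 5 to 40.4 in KO mouse 2, and 27.1 ± 2.94 CPM (SD, n = 5) in WT mice. KO mouse 5, the highest for *Pdgfra*, was thus the lowest for *Olig2*.

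On the side of the ligands, *Ptn* was called. It encodes pleiotrophin, a secreted heparin-binding growth factor that binds PTPRZ1 and inhibits its phosphatase activity. Its level was 370.4, 397.5, 365.1, 370.5 and 367.1 CPM in KO mice 1 to 5. In WT mice 1 to 5 it was 317.2, 364.3, 298.4, 308.0 and 333.5 CPM. Each KO mouse was above each WT mouse, but KO mouse 3 exceeded WT mouse 2 by less than 1 CPM. The log2 fold change was 0.23 (SE 0.04, interval 0.14 to 0.31), with an edgeR QL adjusted p = 0.00956 and a p of 0.00794 in the exact permutation test, the smallest that 5 against 5 mice can give. The call depended on the model, as the adjusted p in edgeR's test was 0.214 with genotype alone, 0.0666 with RIN in place of the surrogate variables and 0.601 in the mice with a RIN of 9.5 or above. It was also lost without KO mouse 3 (0.0629), WT mouse 3 (0.110) or WT mouse 4 (0.0612) by the same test. The log2 fold change itself stayed between 0.17 and 0.28 under the 20 alternatives. *Ptn* lies at chr6:36714929-36810220 and is also made by neurons and astrocytes.

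Among the 11 ligands and partners of PTPRZ1 tested, *Ptn* was the 1 gene called, 5 had a fold change above 0 and the median was -0.02. *Mdk*, the other member of the pleiotrophin family, had 7.57 ± 1.28 CPM in KO mice and 7.36 ± 1.17 CPM in WT mice (SD, n = 5 each), a log2 difference of -0.04 in the fit. *Tnc*, the matrix protein tenascin C, had the largest value of the list, -0.41, with an edgeR QL adjusted p = 0.340. Of 6 PDGF ligands and related receptors, 0 were called, 5 had a fold change below 0 and the median was -0.09. *Pdgfa*, which encodes the ligand of PDGFRα, had 40.2 ± 2.0 CPM in KO mice and 39.8 ± 3.64 CPM in WT mice (SD, n = 5 each), a log2 difference of 0.04 in the fit (interval -0.09 to 0.16). *Pdgfrl*, a receptor-like gene at 1.48 CPM or less in all mice, had the largest value, -1.08, with an edgeR QL adjusted p = 0.403.

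Gene families of the other members gave 0 calls in edgeR's test. Of 7 lecticans and link proteins, relatives and partners of versican, 4 had a fold change above 0 (median 0.08), and *Hapln1*, a link protein that ties lecticans to hyaluronan, had the largest, 0.34, with 44.7 ± 5.90 CPM in KO mice and 35.1 ± 4.39 CPM in WT mice (SD, n = 5 each) and an edgeR QL adjusted p = 0.0575. The 8 partners of NG2 had a median of 0.0031, with *Col6a1*, a chain of collagen VI, at -0.14. The 3 other sialidases were each below 0, with *Neu3*, the sialidase of the plasma membrane, at -0.13. Of the LHFPL family, 4 of 5 genes passed the filter, with a median of -0.07 and *Lhfpl5*, a component of the hair cell transduction complex, at -0.21. Of 8 genes related to *Gpr17*, 3 were above 0 (median -0.08), and *P2ry1*, a nucleotide receptor, had the largest value, 0.46, with an edgeR QL adjusted p = 0.467. Among 20 regulators of OPC proliferation and differentiation, 8 were above 0 (median -0.01). *Bmp4*, a ligand that holds back differentiation, had the largest value, -0.36. *Fgfr2*, a fibroblast growth factor receptor, had -0.33 with the smallest edgeR QL adjusted p of this list, 0.0520. *Igf1r*, another growth factor receptor, had 0.20 with an edgeR QL adjusted p = 0.0585. At an unadjusted p under 0.05 in edgeR's test, 2 of the 20 were higher in KO mice and 3 lower.

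Genes of later stages were counted in the same way. Of 16 genes of committed and newly formed oligodendrocytes, 0 were called, 9 had a fold change below 0 and the median was -0.04. At an unadjusted p under 0.05 in edgeR's test, 4 of the 16 were lower in KO mice and 1 was higher. *Enpp6*, a choline phosphodiesterase of newly formed oligodendrocytes, had 12.8 ± 2.51 CPM in KO mice and 14.5 ± 0.81 CPM in WT mice (SD, n = 5 each), a log2 fold change of -0.31, and an edgeR QL adjusted p = 0.164. *Itpr2*, another gene of this list and one of those most like the 7, had 31.3 ± 3.05 CPM in KO mice and 25.7 ± 2.01 CPM in WT mice (SD, n = 5 each), a log2 fold change of 0.20 and an edgeR QL adjusted p = 0.130. Of 15 mature myelin genes, 0 were called, 12 were below 0 and the median was -0.08. At an unadjusted p under 0.05 in edgeR's test, 5 of the 15 were lower in KO mice and 0 higher. Of all 14344 genes tested, 1522 had such a p, 791 of them higher in KO mice. *Aspa*, an enzyme that splits N-acetylaspartate in oligodendrocytes, had the largest value, -0.45, with 8.83 to 15.9 CPM in KO mice, 14.2 to 19.0 CPM in WT mice and an edgeR QL adjusted p = 0.0808. The count of myelin genes below 0 depended on single mice. It was 7 of 15, with a median of 0.0040, without WT mouse 5, and 8 of 15 without KO mouse 1 (median -0.0012) or without KO mouse 5 (median -0.02). It was 15 of 15 without KO mouse 2 (median -0.12) or without WT mouse 2 (median -0.09), and 14 of 15 without KO mouse 4. Summed, myelin genes had 6680 to 9689 CPM in KO mice and 6922 to 8740 CPM in WT mice, and KO mouse 2 was the highest. The difference between OPC genes and myelin genes was not tested.

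**Figure D4:**
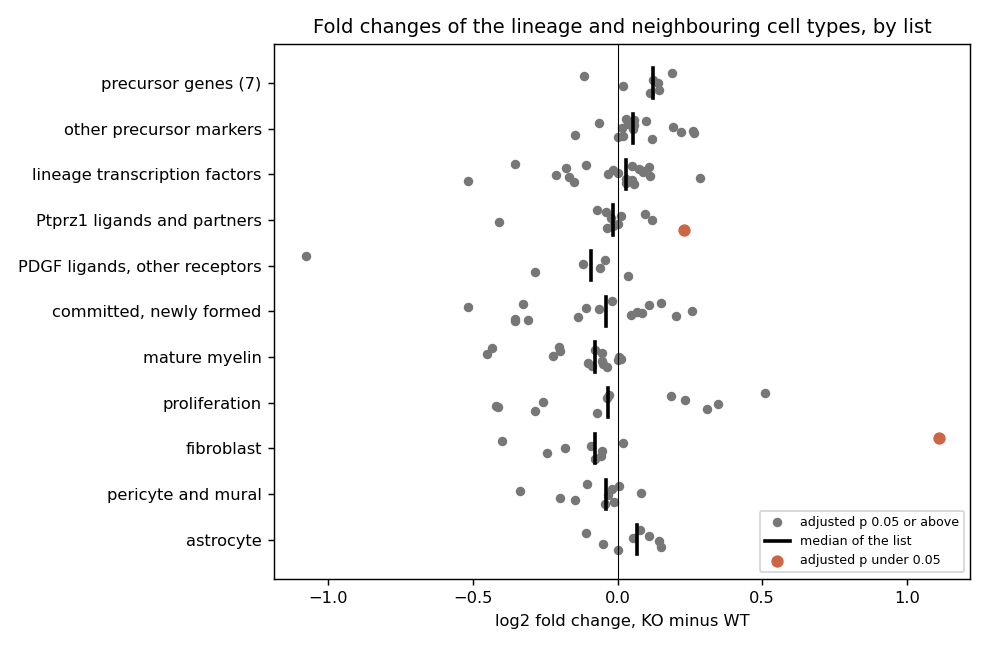
Log2 fold change, KO minus WT (x axis), of each gene tested in 11 lists (y axis), with 1 point per gene and a bar at the median of the list. Of the genes plotted, *Ptn* (0.23) and *Postn* (1.11) pass the adjusted threshold of 0.05, and the median is 0.12 for the 7 OPC genes and -0.08 for the mature myelin genes.

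Markers of other cells that make the 7 genes were taken beside them. Of 9 fibroblast markers, 1 was called, *Postn*, the matrix protein periostin, with 5.55 ± 1.20 CPM in KO mice and 2.47 ± 0.51 CPM in WT mice (SD, n = 5 each) and an edgeR QL adjusted p = 0.00266. The other fibroblast markers did not pass, 7 of the 9 were below 0 and the median was -0.08. The summed level of the 9 was 42.3 to 86.5 CPM in KO mice and 38.0 to 56.9 CPM in WT mice. The highest sum, in KO mouse 2, included 28.4 CPM of *Dcn*. Of 10 pericyte and mural markers, 0 were called and 8 were below 0 (median -0.04, *Acta2* -0.34), with sums of 213.3 to 249.0 CPM in KO mice and 217.5 to 262.1 CPM in WT mice. Of 12 proliferation genes, 0 were called and 5 were above 0 (median -0.03), with *Rrm2*, a subunit of ribonucleotide reductase, at 0.51. Their sums were 55.1 to 79.6 CPM in KO mice and 60.8 to 69.2 CPM in WT mice, and *Mki67* was at 6.80 CPM in KO mouse 5 and at 1.16 CPM in KO mouse 1. The part of these cells in the values of the 7 genes was not tested.

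Among astrocyte markers *Gfap*, the intermediate filament protein, had the largest value, 0.15. None of the 7 microglia markers (median -0.06, *Aif1* -0.34), the 6 endothelial markers (median -0.11, *Flt1* -0.17) or the 8 neuron markers (median -0.0011, *Rbfox3* 0.14) was called by edgeR's test. The neuron list, which includes *Rbfox3*, *Snap25* and *Slc17a7*, summed to 8159 to 9249 CPM over the mice. Of 9 striatal markers 0 were called and 7 were above 0 (median 0.21, *Gpr6* 1.22). At an unadjusted p under 0.05 in edgeR's test, 5 of the 9 were higher in KO mice and 0 lower, where 5.51% of all genes tested were higher. Their sums were 329.0 to 493.3 CPM in KO mice and 298.3 to 593.8 CPM in WT mice. The WT mice other than WT mouse 5 lay between 298.3 and 328.2 CPM, below each KO mouse. The part of striatal tissue in the values of the 7 genes was not tested. WT mouse 5, the highest for striatal markers, was also the highest WT mouse for *Pdgfra*, *Cspg4*, *Ptprz1* and *Vcan*. Without it the fold change was above 0 for 6 of the 7 genes, their median was 0.17 and 0 were called.

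**Figure D5:**
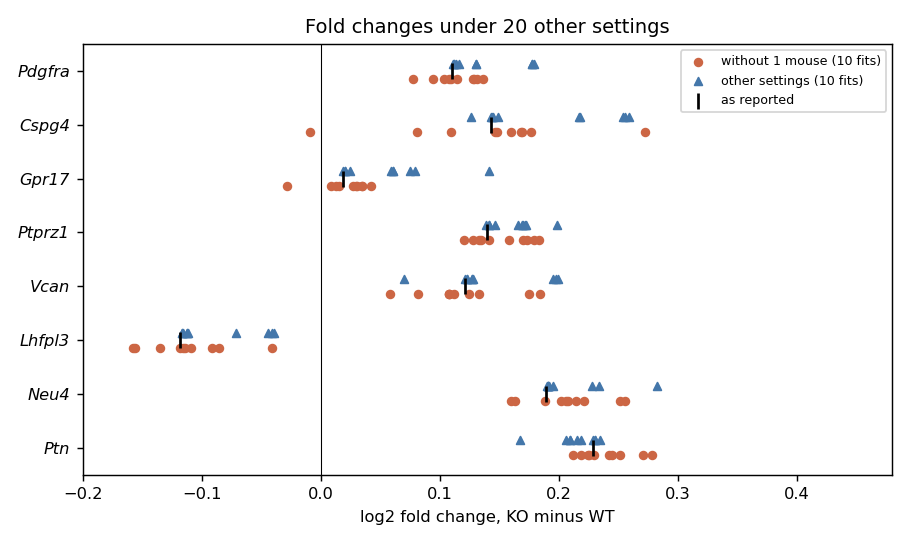
Log2 fold change, KO minus WT (x axis), of the 7 OPC genes and *Ptn* (y axis) as reported (black bar), without 1 mouse in turn (orange circles) and under 10 other settings (blue triangles). *Ptprz1* stays between 0.12 and 0.20 and *Pdgfra* between 0.08 and 0.18, while *Gpr17* reaches -0.03, *Cspg4* spans -0.01 to 0.27 and *Vcan* 0.06 to 0.20.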

How the data were processed

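Stranded, paired-end mRNA libraries of 10 PFC samples were aligned by the authors to mm10 with STAR (2.7.1a), and uniquely mapped reads were counted on the exons of protein-coding Gencode M21 genes with HTSeq (0.9.1, versions per the submitters' processing notes). The deposited values are raw counts, without normalization. Groups and replicate numbers were taken from the labels. Intersection-strict counting leaves out reads shared between overlapping genes.

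From the counts, genes were filtered with filterByExpr, scaled by TMM and tested in edgeR (4.0.16, R 4.3.3) with genotype and 3 surrogate variables from sva (3.50.0, log2(CPM + 1), seed 1), with Benjamini-Hochberg adjustment over 14344 genes and a threshold of 0.05. DESeq2 (1.42.0), limma (3.58.1, log2 CPM with a prior count of 2), other covariates, RLE factors, no filter and leaving out each mouse were alternatives. CPM in the text use TMM-scaled totals of the genes tested, except the floors of 3 counts. Permutation tests used log2 CPM and all splits of the mice into 5 and 5. Those of correlations used 100000 resamples. The code was tested on simulated counts. Figures were drawn with matplotlib (3.10.9, Python 3.11.15).

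The members and lists were chosen with earlier results of these data known. Some lists share genes. All 7 members were named, and from each other list the genes called or, failing that, the gene of largest fold change, plus the 5 genes most like the members. *Rlbp1*, *Ncan*, *Pcdh15*, *Olig1*, *Olig2*, *Sox8*, *Sox10*, *Mdk*, *Pdgfa*, *Fgfr2*, *Igf1r*, *Enpp6*, *Itpr2*, *Mki67*, *Slc1a2*, *Slc1a3*, *Aldoc* and *Dcn* were added after their values were seen. Replicates are separate mice. No pair of libraries of a group agreed within sampling noise, and counting intervals and floors cover counting error only. *Grk2* and *Drd1* were not analysed here.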

Additional observations from a re-analysis of the deposited data

Results flagged for a closer look

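Gaps within a genotype were tested in 60 groups of 5 mice, and a mouse was singled out where its gap to the nearest other mouse took more than 0.71 of the range of its group, which chance gives in about 1 of 20 groups. KO mouse 2 was singled out for *Gpr17* (97.8 CPM, others 78.1 to 82.5), *Neu4* (14.03 CPM, others 10.2 to 11.2) and *Ptn* (397.5 CPM, others 365.1 to 370.5). WT mouse 5 was singled out for *Vcan* (31.0 CPM, others 23.8 to 25.1), for the summed proliferation genes (69.2 CPM, others 60.8 to 62.7) and for the summed striatal markers (593.8 CPM, others 298.3 to 328.2). KO mouse 3 was singled out for the summed Y-linked genes (0.0308 CPM, others 150.0 to 160.9).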

How the results depend on the processing

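Calls over all genes numbered 121 and depended on the model: 30 with no surrogate variables, 34 with 1, 57 with 2, 38 with RIN in their place, 1 in the mice with a RIN of 9.5 or above, 229 with DESeq2, 123 with RLE factors, 140 without a filter, 125 with limma, and 39 to 248 when each mouse was left out (59 without KO mouse 1, 248 without KO mouse 2, 54 without KO mouse 3, 39 without WT mouse 3 and 65 without WT mouse 4). Of the 7 OPC genes, 0 were called under each alternative except without KO mouse 5, so the range over left-out mice was 0 to 1. The number with a fold change above 0 was 6 under each, except 5 without KO mouse 2, where *Gpr17* turned to a log2 fold change of -0.0282 (up to 0.0418 without another mouse), and 5 without WT mouse 3, where *Cspg4* turned to -0.00897 (up to 0.272 without another mouse). The number with an unadjusted p under 0.05 was 1 to 4. The causes were not tested. *Ptn* lost its call under 8 of 20 alternatives and *Postn* under 1 of 20, the mice of higher RIN.

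With a replicate block in place of the surrogate variables, 24 genes and 0 of the 7 were called, and for *Ptn* the edgeR QL adjusted p was 0.0765. Same-numbered mice deviated with correlations of -0.06 to 0.16. Mice of different numbers were not compared in this way, so these values cannot decide whether the numbers pair the mice.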
